A study of Homo sapiens with 8 samples.

Results

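Narrow regions of trimethylation of lysine 4 of histone H3 (H3K4me3) that were called in every library of MM1S cells are described here. Regions on chromosomes 1 to 22 and X from the 8 deposited lists were merged where they shared 1 bp or more, into 50523 merged regions. Of these, 13729 were called in all 8 lists, and 1474 of the 13729 (10.7%) had a mean of fewer than 700 called bases over the 5 DMSO lists. Those 1474 regions, 2.92% of all merged regions, are the narrow regions. The other 12255 regions called in all 8 lists are named the other shared regions.

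The study mapped H3K4me3 by chromatin immunoprecipitation and sequencing (ChIP-seq) in MM1S, an established human multiple myeloma line. There were 3 libraries from cells treated with KDM5-C70 at 50 uM for 7 days and 5 from cells in DMSO, the vehicle, whose time in culture the labels leave out. All libraries came from this 1 line, were fixed for 8 minutes in 1% formaldehyde, and were made with 1 ug of the same antibody lot. The labels do not say whether libraries of a group came from separate cultures, so p-values measure only the spread between these libraries, which may be technical.

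H3K4me3 is laid down by the SET1 and MLL methyltransferase complexes and lies mainly over the nucleosomes that flank active transcription start sites. The KDM5 demethylases (KDM5A to KDM5D) remove methyl groups from this lysine, and KDM5-C70 is a cell-permeable inhibitor of that family. The breadth of an H3K4me3 region differs widely between promoters: broad regions are known from genes of cell identity, while narrow ones span only the nucleosomes beside a start site or lie at weaker promoters and some enhancers.

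Each list gives, for every region, its outer limits and a set of inner blocks. In this MACS2 format the outer region is called at a looser threshold and the inner blocks at a stricter one. Inner blocks longer than 1 bp are named inner segments, and the inner share is the percentage of called bases that lie in them. The called width is the number of called bases of a library in a merged region. The libraries form 2 sets that do not follow treatment. The lists of KDM5-C70 1, DMSO 1 and DMSO 2 are short, with 15323 to 20998 regions, and the lists of KDM5-C70 2 and 3 and DMSO 3, 4 and 5 are long, with 28195 to 37948 regions. The files used here hold no read totals, which leaves sequencing depth unknown, and several differences between groups are also given within each set. The 2 sets were recognised from the data and not from the labels.

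The narrow regions were compact. A single called interval was found in all 8 libraries at 1465 of the 1474 narrow regions (99.4%) and at 87.6% of the other shared regions. The mean width over the 3 KDM5-C70 libraries had a median of 646.5 bp over the narrow regions, and the mean over the 5 DMSO libraries, which chose them, had a median of 583.7 bp. The DMSO means ran from 208.6 bp to 699.6 bp, and the merged regions, which join the calls of all libraries, had a median length of 952 bp.

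Few of these regions were narrow in each library on its own. All 8 libraries had fewer than 700 called bases at 261 narrow regions (17.7%). All 3 KDM5-C70 libraries did so at 432 and all 5 DMSO libraries at 429 (29.1%). By library, 1346 of the 1474 narrow regions were under 700 bp in KDM5-C70 1, 693 in KDM5-C70 2 and 620 in KDM5-C70 3, against 1373 in DMSO 1, 1447 in DMSO 2, 611 in DMSO 3, 980 in DMSO 4 and 893 in DMSO 5. The short lists therefore held far more of them under the limit than the long lists in both groups. The shortest region in any list was 146 bp, and 22, 8 and 11 narrow regions stood at that length in KDM5-C70 1, 2 and 3, against 7, 53, 3, 4 and 0 in DMSO 1 to 5.

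The widths of narrow regions also varied more from library to library than those of other shared regions. The coefficient of variation of width over the 8 libraries had a median of 34.5% over narrow regions and 24.7% over the other shared regions. As a description over regions that share their libraries, Spearman's rho of width between 2 libraries of the same set ran from 0.397 to 0.645 over the narrow regions and from 0.749 to 0.915 over the other shared regions. Between libraries of different sets it ran from 0.0804 to 0.25 over narrow regions and from 0.552 to 0.779 over the others. Restricting the range of width lowers such a correlation, so these values do not compare the reliability of the calls. An inner segment was called in all 8 libraries at 1131 narrow regions (76.7%) and at 95.3% of the other shared regions. The authors' fold enrichment, ranked within each list, placed the median narrow region at the 48.4th to 50.2nd percentile in KDM5-C70 lists and at the 46.2nd to 49.6th percentile in DMSO lists, against 52.0 to 54.7 and 51.1 to 54.8 for the other shared regions.

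The narrow regions had closer neighbours. Another region shared by all 8 libraries lay within 5 kb of 226 narrow regions (15.3%) and of 863 other shared regions (7.04%). The median distance to the nearest merged region of any kind was 10872 bp for narrow regions and 14092 bp for the others. At the far end the shares were close, with 298 narrow regions (20.2%) and 2780 other shared regions (22.7%) more than 100 kb from the next shared region. No test was made of these differences between classes of regions.

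Several narrow regions are described next, picked among the steadiest and the most isolated and not as typical ones. Repeat content and mappability at their positions were not examined. They are named by position, and the build used here allows no gene to be assigned to them. The steadiest one of at least 300 bp, at chr10:42400219-42400728 on GRCh37, was 503, 474 and 438 bp wide in KDM5-C70 1 to 3 and 508, 510, 480, 481 and 496 bp wide in DMSO 1 to 5. Its widths had a coefficient of variation of 4.89%, and its inner share was at least 98.3% in every library. A second, at chr10:104001103-104001799, was called with 2 inner segments in all 8 libraries. It was 572, 674 and 636 bp wide in KDM5-C70 1 to 3 and 589, 612, 657, 547 and 600 bp wide in DMSO 1 to 5, so the groups overlapped. The most isolated narrow region, at chr9:43684523-43685537, lay 385 kb from any other merged region. Its widths were 699, 207 and 319 bp in KDM5-C70 1 to 3 and 542, 488, 593, 316 and 1015 bp in DMSO 1 to 5, with no order by group or by set.

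The limit of 700 bp fell in a continuous range of widths. The narrow regions closest to it, at chr8:17434206-17435400 and chr9:139886812-139887849, had a DMSO mean of 699.6 bp each and KDM5-C70 means of 839.3 and 846.3 bp. The closest regions beyond it, at chr1:63787771-63788610 and chr12:9892108-9893217, had a DMSO mean of 700 bp each and KDM5-C70 means of 607.7 and 461.3 bp. Both groups of means describe regions on either side of a limit set on DMSO widths, and nothing is tested with them.

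The first comparison asks whether narrow regions differed in width between KDM5-C70 and DMSO cells. Over the 1474 narrow regions the median called width was 429, 719 and 752.5 bp in KDM5-C70 1, 2 and 3, against 473, 341, 735, 634.5 and 660 bp in DMSO 1 to 5. The means were 633.5 ± 178 bp in KDM5-C70 (SD, n = 3) and 568.7 ± 159 bp in DMSO (SD, n = 5), a difference of 64.8 bp. Within the sets it was 22 bp in the short lists and 59.25 bp in the long lists. This difference has no test, because the regions were chosen for low DMSO widths. A region whose DMSO widths happened to be low enters the class, while its KDM5-C70 widths took no part in the choice and lie closer to its usual width. Such a choice tends to place KDM5-C70 above DMSO whether or not treatment matters (regression to the mean), and 3 other ways of choosing were set beside it.

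When the mean over all 8 libraries, which takes no account of treatment, had to be under 700 bp, 1251 regions were chosen, of which 1200 were also narrow by the DMSO mean. These 1251 regions are named the label-blind narrow regions. Their median width was 400, 664 and 691 bp in KDM5-C70 1, 2 and 3, against 462, 330, 712, 612 and 634 bp in DMSO 1 to 5. The means were 585 ± 161 bp in KDM5-C70 and 550 ± 153 bp in DMSO (SD, n = 3 and n = 5), a difference of 35 bp that was within the spread of either group (2-sided exact permutation p = 0.75 over 56 splits, smallest p possible 0.0357). KDM5-C70 minus DMSO was 4 bp within the short lists and 24.8 bp within the long lists (exact permutation p within sets = 0.833).

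Choosing on the opposite group turned the difference round. The mean over the 3 KDM5-C70 libraries was under 700 bp at 1112 shared regions, of which 917 were among the 1474 (62.2% of the 1474 and 82.5% of the 1112). Over the 1112 regions the mean of the library medians was 551.2 ± 141 bp in KDM5-C70 and 560.5 ± 146 bp in DMSO, a difference of -9.33 bp. Within the sets it was -26.25 bp in the short lists and -25.2 bp in the long lists. The difference thus went from above 0 with the DMSO choice to below 0 with the KDM5-C70 choice, and lay between them with the label-blind one.

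Libraries that took no part in the choice gave a further reading. DMSO 1 and 2 alone chose 3896 shared regions under 700 bp. In the long lists these regions had a median width of 995.5 and 1023 bp in KDM5-C70 2 and 3, against 974, 851 and 885 bp in DMSO 3, 4 and 5. Both KDM5-C70 libraries were above all 3 DMSO libraries, with a mean difference of 106 bp (exact permutation p = 0.2 over 10 splits, smallest p possible 0.1). All of these medians were above 700 bp, so the regions were not narrow in the long lists. Relative to the other shared regions, the log2 of median width was -0.81 and -0.80 in KDM5-C70 2 and 3. It was -0.77, -0.85 and -0.83 in DMSO 3, 4 and 5, and the groups overlapped. In the reverse direction DMSO 3, 4 and 5 chose 830 regions, whose median width was 397.5 bp in KDM5-C70 1, against 444.5 bp in DMSO 1 and 327 bp in DMSO 2. There the KDM5-C70 library lay between the DMSO libraries.

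Each DMSO library was also left out of the choice in turn. The class then changed in size, to 1310, 1062, 1887, 1631 and 1691 regions without DMSO 1 to 5, from 1474. The widths below therefore mix a change of regions with any shift from the choice, and do not measure that shift alone. When DMSO 3 was left out of the mean that chose the regions, its own median width over the chosen regions was 784 bp, against 735 bp when it took part. DMSO 4 had 664 bp when left out and 634.5 bp when it took part, and DMSO 5 had 692 bp and 660 bp. With DMSO 3 left out, KDM5-C70 2 and 3 stood at 773 and 809 bp over the same regions, 1 below and 1 above DMSO 3. With DMSO 4 left out they stood at 743 and 783 bp, and with DMSO 5 left out at 754 and 792 bp, both above the DMSO library that had been left out. DMSO 1 had 478 bp when left out and 473 bp when it took part. DMSO 2 went the other way, with 330 bp when left out and 341 bp when it took part. KDM5-C70 1 had 421.5 bp with DMSO 1 left out and 399 bp with DMSO 2 left out.

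**Figure D1:**
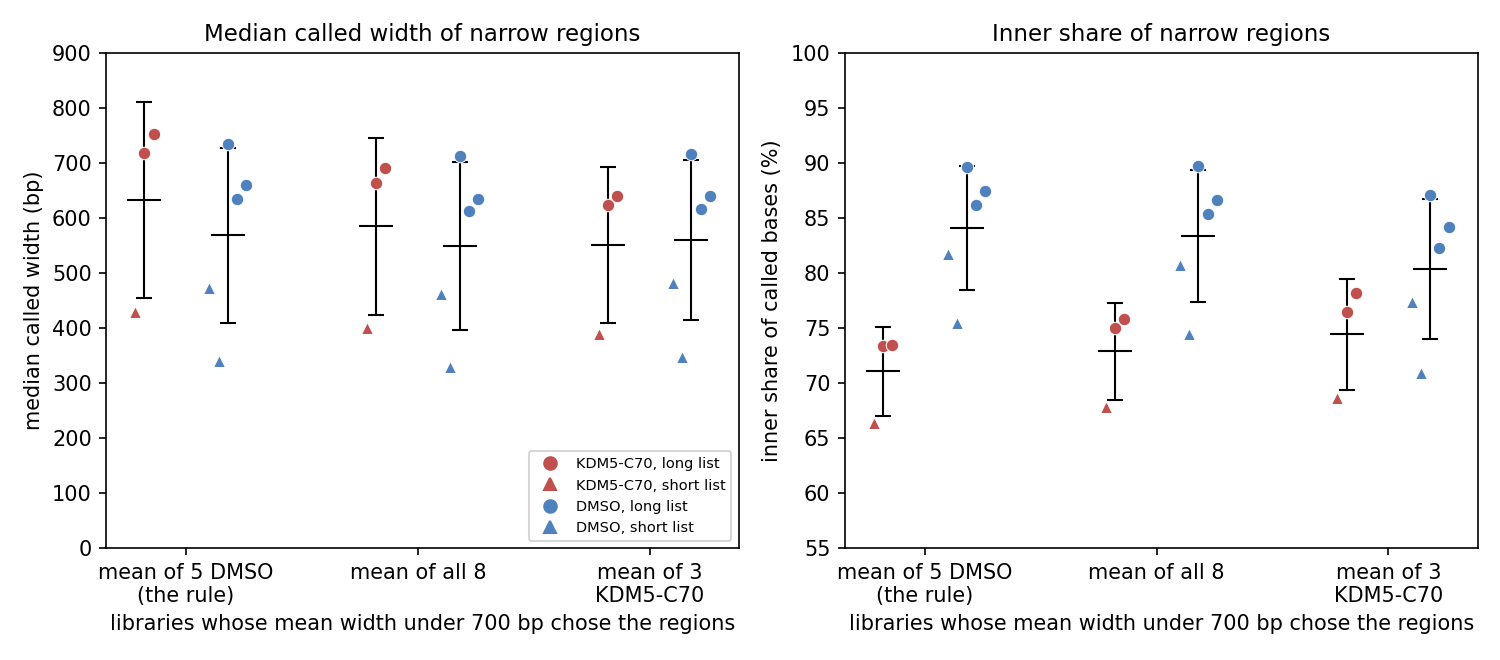
Median called width (bp, left) and inner share (%, right, axis from 55) of narrow regions in each library, for regions chosen by the mean width of the 5 DMSO, of all 8 or of the 3 KDM5-C70 libraries, with KDM5-C70 left of DMSO, triangles for short lists, circles for long lists, and mean and SD per group. KDM5-C70 minus DMSO in width was 64.8 bp with the DMSO choice, 35 bp with the choice on all 8 and -9.33 bp with the KDM5-C70 choice, while the inner share was lower on average in KDM5-C70 under all 3.

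The same dependence appeared when all shared regions were cut into bins of width. In the long lists, the 139 regions with a DMSO mean under 400 bp had a median log2 ratio of width, KDM5-C70 over DMSO, of 0.03, and the 897 regions from 550 to 700 bp had 0.14. Under the same binning the bins from 700 to 900, 900 to 1200 and 1200 to 1600 bp had 0.15, 0.16 and 0.16. The bins below 700 bp were not above these. Binned by the mean over all 8 libraries, the bin under 400 bp (129 regions) had -0.04, that from 400 to 550 bp (358 regions) 0.01 and that from 550 to 700 bp (764 regions) 0.08. The bin from 1200 to 1600 bp, which holds 4047 shared regions, had 0.16. Binned by the KDM5-C70 mean, the bin under 400 bp (158 regions) had -0.31 and that from 550 to 700 bp (638 regions) had 0.01. In the narrow range the ratio thus followed which libraries set the bins, with both signs found below 700 bp. The mean inner share was lower in KDM5-C70 than in DMSO in every bin under all 3 binnings, by the least in the bin under 400 bp set by KDM5-C70 (difference -1.78 points).

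**Figure D2:**
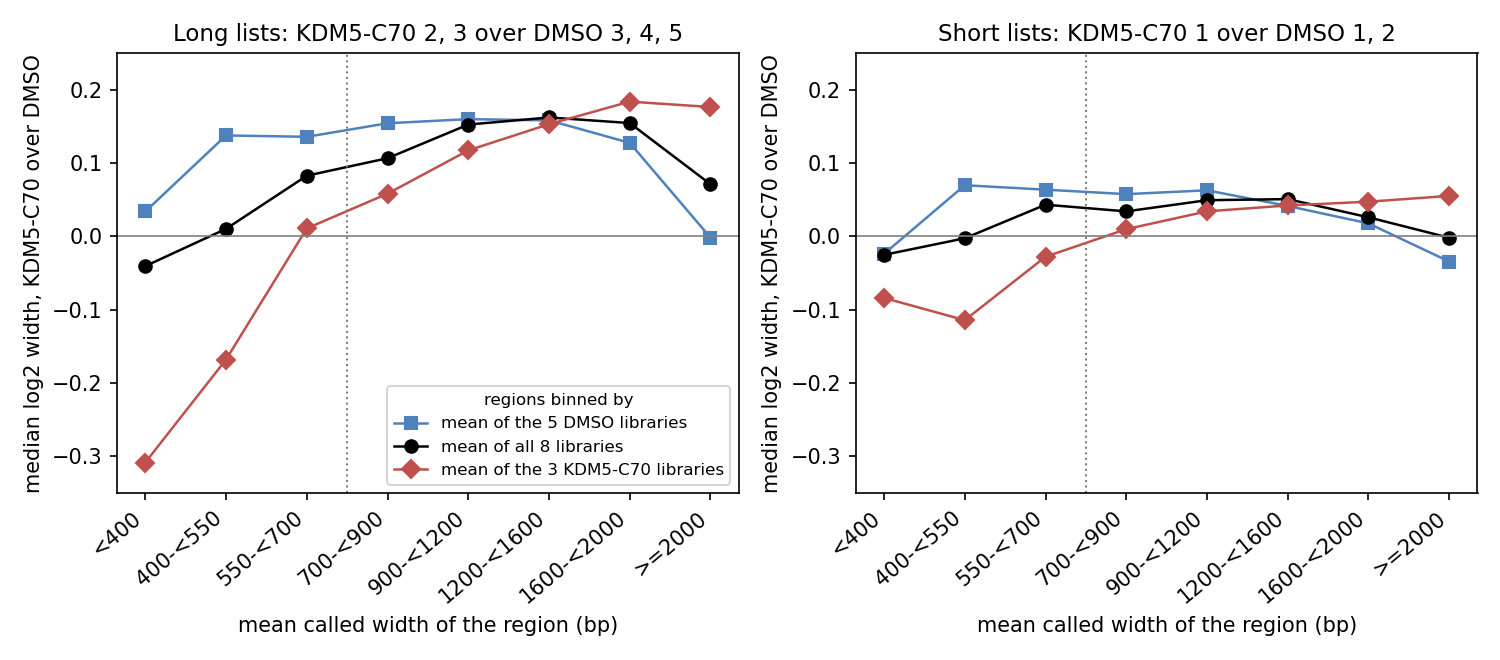
Median log2 ratio of called width, KDM5-C70 over DMSO, of the 13729 shared regions in bins of mean width (bp), for the long lists (left) and the short lists (right), with lines for the libraries whose mean set the bins and a dotted line at 700 bp. In bins below 700 bp the ratio in the long lists ran from -0.31 to 0.14 depending on which libraries set the bins.

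Relative to the other shared regions, the label-blind narrow regions kept about the same proportion of width in both groups. The log2 of the median width of narrow over other shared regions was -1.36, -1.28 and -1.26 in KDM5-C70 1 to 3, against -1.24, -1.44, -1.11, -1.21 and -1.19 in DMSO 1 to 5. The difference between groups was -0.06 (exact permutation p = 0.464), which did not pass the test.

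The ends of narrow regions were compared as outward distances from the mean end of the 8 libraries, over label-blind narrow regions called as 1 interval in every library. The median left end lay at -69.3, 26.2 and 41.3 bp in KDM5-C70 1 to 3, against -38.9, -99.8, 54.7, 16.3 and 25.2 bp in DMSO 1 to 5, where positive values are outward. For left ends the difference of means was 7.92 bp (exact permutation p = 0.893), and for right ends it was 11.04 bp (exact permutation p = 0.821). Both ends were inward in the short lists and outward in the long lists in both groups, and neither end differed by treatment beyond that spread. Over the 1474 regions chosen on DMSO widths, the left ends differed by 25.6 bp and the right ends by 26.8 bp, given without a test. Between the 2 sides the shifts were thus alike in size under either choice.

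The second comparison concerns how much of each narrow region lay in inner segments. Over the label-blind narrow regions the inner share was 67.8%, 74.97% and 75.9% in KDM5-C70 1, 2 and 3, against 80.7%, 74.4%, 89.8%, 85.3% and 86.6% in DMSO 1 to 5. Only DMSO 2 lay within the KDM5-C70 range. The means were 72.9 ± 4.41% in KDM5-C70 (SD, n = 3) and 83.4 ± 5.96% in DMSO (SD, n = 5), a difference of -10.5 percentage points that missed the threshold (exact permutation p = 0.107). Within the sets the difference was -9.76 points in the short lists and -11.8 points in the long lists, and permuting only within sets gave the smallest p that this allows (exact permutation p = 0.0333 over 30 arrangements, adjusted p = 0.178 over 16 measures by Benjamini-Hochberg).

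Unlike the width, the mean inner share was lower in KDM5-C70 under every choice of narrow regions, though the size of the difference moved with the choice. It was 66.4%, 73.4% and 73.4% in KDM5-C70 1 to 3 over the 1474 regions, against 81.8%, 75.5%, 89.6%, 86.2% and 87.5% in DMSO 1 to 5, a difference of -13.0 points. Over the 1112 regions chosen on KDM5-C70 widths the difference was -5.93 points, less than under the DMSO choice. There the inner share was 68.7%, 76.5% and 78.2% in KDM5-C70 1 to 3, against 77.4%, 70.9%, 87.1%, 82.3% and 84.2% in DMSO 1 to 5, and the groups overlapped. In the libraries that had not chosen the regions, the share was 71.0% and 68.8% in KDM5-C70 2 and 3, against 84.6%, 81.04% and 82.6% in DMSO 3 to 5 (difference -12.8 points, exact permutation p = 0.1, the smallest possible). In the short lists it was 66.7% in KDM5-C70 1, against 79.3% in DMSO 1 and 72.5% in DMSO 2.

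The lower inner share was not particular to narrow regions. The other shared regions had inner shares of 61.9%, 69.6% and 64.7% in KDM5-C70 1 to 3, against 75.01%, 70.6%, 83.3%, 79.4% and 81.4% in DMSO 1 to 5. In each library the narrow regions were filled more: narrow minus other was 7.50 ± 3.23 points in KDM5-C70 and 5.44 ± 1.00 points in DMSO (SD, n = 3 and n = 5). That excess did not differ between groups by more than the spread (difference 2.06 points, exact permutation p = 0.357).

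Bases outside inner segments can lie in the flanks of a region, in gaps between its inner segments, or in regions with no inner segment. The following measures were added after the data were examined, over the 1244 label-blind narrow regions called as 1 interval in every library. Flanks and gaps were read only at regions where that library had an inner segment, so regions without one are left out of them. That loss is uneven: an inner segment was called at 88.6% of label-blind narrow regions in KDM5-C70 1 and 88.2% in DMSO 2, but at 99.8% in DMSO 3. In the regions with an inner segment, flanks held 22.2%, 19.6% and 18.3% of the called bases in KDM5-C70 1 to 3, against 14.9%, 14.6%, 8.03%, 11.7% and 11.2% in DMSO 1 to 5. All 3 KDM5-C70 libraries were above all 5 DMSO libraries, with 20.02 ± 1.95% in KDM5-C70 and 12.1 ± 2.81% in DMSO (difference 7.94 points, exact permutation p = 0.0357, the smallest possible, adjusted p = 0.19 over 16 measures). Gaps held less, 2.06%, 3.74% and 4.55% in KDM5-C70 1 to 3 and 1.14% to 2.18% in DMSO 1 to 5, and the groups overlapped (exact permutation p = 0.107).

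Most DMSO narrow regions were filled nearly from end to end. Inner segments covered at least 95% of the called bases at 41.4%, 39.4% and 39.95% of the label-blind narrow regions in KDM5-C70 1 to 3, against 51.5%, 55.9%, 64.6%, 56.2% and 60.5% in DMSO 1 to 5. The groups did not overlap, at 40.2 ± 1.04% in KDM5-C70 and 57.7 ± 4.98% in DMSO (SD, n = 3 and n = 5), a difference of -17.5 points (exact permutation p = 0.0357, adjusted p = 0.19 over 16 measures). The difference was -12.3 points within the short lists and -20.8 points within the long lists. Both flanks were at most 10 bp long at 47.3%, 42.7% and 45.3% of the narrow regions with an inner segment in KDM5-C70 1 to 3, against 52.4%, 64.0%, 59.5%, 54.9% and 54.9% in DMSO 1 to 5 (exact permutation p = 0.0357, adjusted p = 0.19).

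The other shared regions moved alike on these measures. They were filled to at least 95% at 13.6 ± 3.01% in KDM5-C70 and 28.2 ± 2.95% in DMSO (SD), a difference of -14.6 points. Narrow minus other was 26.6 points in KDM5-C70 and 29.5 points in DMSO. That excess differed between groups by -2.88 points (exact permutation p = 0.179). For flanks, the difference between groups over the other shared regions was 7.92 points, and the test of narrow against other gave a difference of 0.0284 points (exact permutation p = 1). Flanks of the other shared regions overlapped between groups, at 14.5% in KDM5-C70 2 against 15.8% in DMSO 2, while those of the narrow regions did not.

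**Figure D3:**
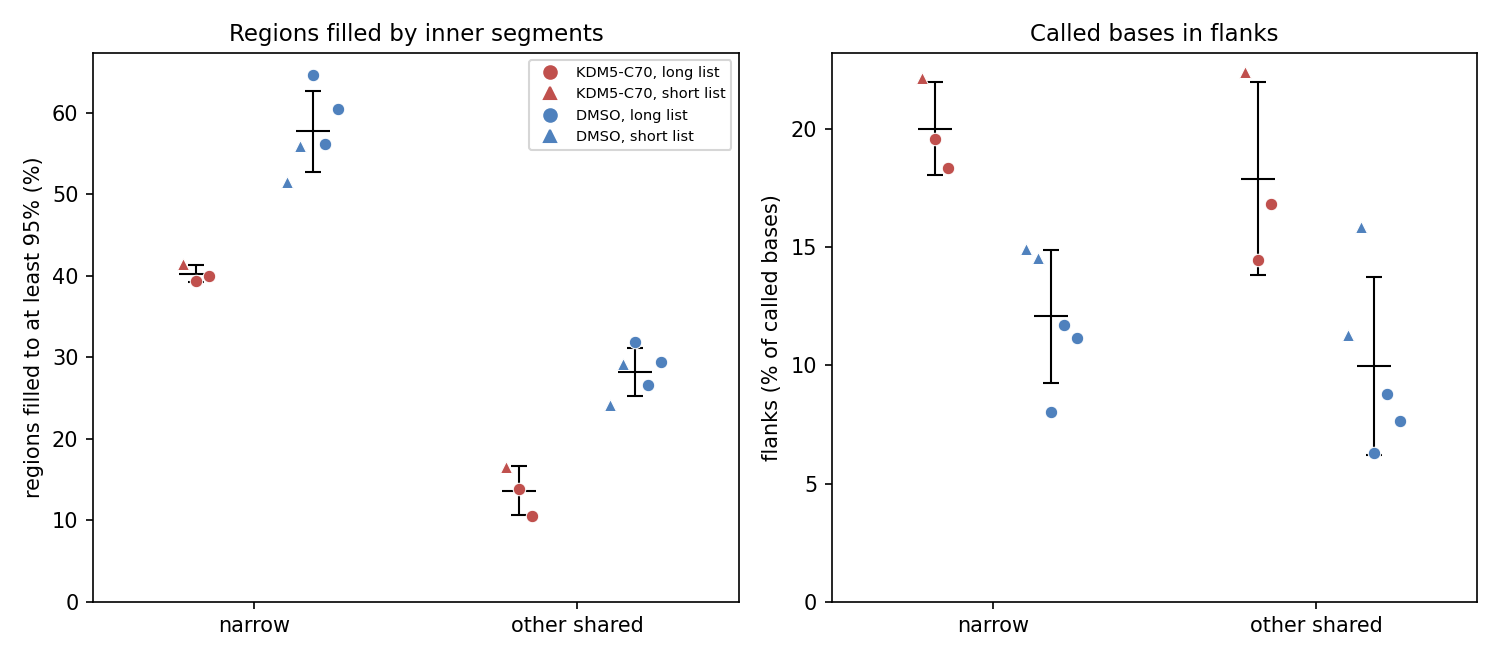
Label-blind narrow regions and other shared regions filled to at least 95% by inner segments (% of regions, left) and flanks (% of called bases of regions with an inner segment, right) in each library, with KDM5-C70 left of DMSO, triangles for short lists, circles for long lists, and mean and SD per group. Narrow regions filled to at least 95% made up 39.4% to 41.4% in KDM5-C70 libraries, below the 51.5% to 64.6% of DMSO libraries.

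Measures at the lower limit of calling overlapped between groups. An inner segment was called at 88.6%, 96.8% and 98.2% of label-blind narrow regions in KDM5-C70 1 to 3, against 96.9%, 88.2%, 99.8%, 98.8% and 99.5% in DMSO 1 to 5 (difference of means -2.10 points, exact permutation p = 0.393). The lowest library of each group was a short list. At the shortest length stood 1.15 ± 0.544% of them in KDM5-C70 and 0.911 ± 1.51% in DMSO (exact permutation p = 0.786). That difference was -0.240 points within the short lists and 0.653 points within the long lists. Regions with 2 or more inner segments made up 5.23%, 14.6% and 17.6% in KDM5-C70 1 to 3, against 8.52%, 2.41%, 9.65%, 9.65% and 7.56% in DMSO 1 to 5 (exact permutation p = 0.179). KDM5-C70 2 and 3 were above all DMSO libraries here, and KDM5-C70 1 was within their range. KDM5-C70 minus DMSO was -0.241 points within the short lists and 7.17 points within the long lists.

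Region by region, no narrow region passed the test for width. The limma fit over all 13729 shared regions, adjusted over them all, called 0 (0%) wider and 0 narrower in KDM5-C70, with a smallest adjusted p of 0.668. At an unadjusted limma p under 0.05 there were 131 wider (0.954%) and 111 narrower (0.809%) among all shared regions, of which 29 and 8 were narrow regions. With each library centred on its median width, 466 of the 13729 shared regions were wider and 678 narrower at that level. Among the 1474 narrow regions, 69 were wider and 40 narrower. Narrow regions made up 10.7% of the shared regions, and the choice on DMSO widths took part in these counts. The median log2 fold change of width was 0.16 over the narrow regions and 0.14 over all shared regions. All 3 KDM5-C70 widths lay above all 5 DMSO widths at 17 narrow regions (1.15%) and at 0.954% of all shared regions. They lay below all 5 at 9 narrow regions (0.611%) and at 0.605% of all shared regions. Those shares were near the background in both directions, and the choice on DMSO widths took part in them.

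Of the non-overlapping narrow regions, the 5 with the smallest p in each direction are described, none of which passed the adjustment. At chrX:48931120-48932288 the width was 808, 722 and 935 bp in KDM5-C70 1 to 3, against 271, 182, 548, 333 and 372 bp in DMSO 1 to 5. The log2 fold change was 1.35 (SE 0.37, limma adjusted p = 0.994), and the region was wider in the KDM5-C70 library of the short lists as well as in those of the long lists. At chr5:1167709-1168842 the widths were 496, 629 and 1134 bp in KDM5-C70 1 to 3 and 295, 294, 426, 375 and 393 bp in DMSO 1 to 5. Inner segments filled 100% of that region in each DMSO library, and 61.5%, 81.9% and 47.9% in KDM5-C70 1 to 3. At chr4:49327965-49329243 the widths were 375, 1031 and 419 bp in KDM5-C70 1 to 3 and 321, 365, 243, 146 and 179 bp in DMSO 1 to 5, so that only KDM5-C70 2 stood far from the rest. The 2 others, at chr5:176797362-176798860 and chr9:96328999-96330081, had log2 fold changes of 0.82 and 0.75, and their KDM5-C70 means of 1118 and 997.3 bp put both above 700 bp in the mean over all 8 libraries, outside the label-blind class.

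In the narrower direction, the region at chr4:74964522-74965281 was 170, 153 and 146 bp wide in KDM5-C70 1 to 3, against 569, 369, 670, 621 and 622 bp in DMSO 1 to 5. All 3 KDM5-C70 calls were at or near the shortest length, and 2 of them held no inner segment, while all 5 DMSO calls held at least 1. Its log2 fold change was -1.84 (SE 0.30, limma adjusted p = 0.668). At chr14:67827087-67827879 the widths were 192, 361 and 311 bp in KDM5-C70 1 to 3 and 541, 507, 762, 660 and 560 bp in DMSO 1 to 5, with a log2 fold change of -1.11 (SE 0.31, limma adjusted p = 0.994). These 2 regions passed when the 2 sets were a term of the limma fit and each library was centred on its median (adjusted p = 0.0352 and 0.0442), where 22 of all shared regions (0.16%) were called narrower and 5 (0.0364%) wider. In the same fit with the 2 sets and centring 1 narrow region was called wider, at chr11:65148534-65150892 (named after its values were seen), with 838, 2303 and 2359 bp in KDM5-C70 1 to 3 and 335, 308, 1075, 529 and 719 bp in DMSO 1 to 5. The groups overlapped over all 8 libraries, and within each set every KDM5-C70 width was above every DMSO width. Its KDM5-C70 mean of 1833 bp was the highest of all narrow regions, and its mean over all 8 libraries put it outside the label-blind class. The DMSO widths that chose this region also entered the fit, so the call is a description only. A fit with the replicate number as a block, without DMSO 4 and 5, called 8 shared regions narrower (0.0583%) and 2 wider (0.0146%), and 0 of these were narrow regions. At chr19:19843258-19844082 the widths were 416, 399 and 430 bp in KDM5-C70 1 to 3 and 622, 619, 697, 564 and 611 bp in DMSO 1 to 5, a small difference (log2 -0.58) with little spread in either group. The regions at chr17:40332853-40333375 and chr16:70221603-70222580 had log2 fold changes of -0.85 and -0.55.

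**Figure D4:**
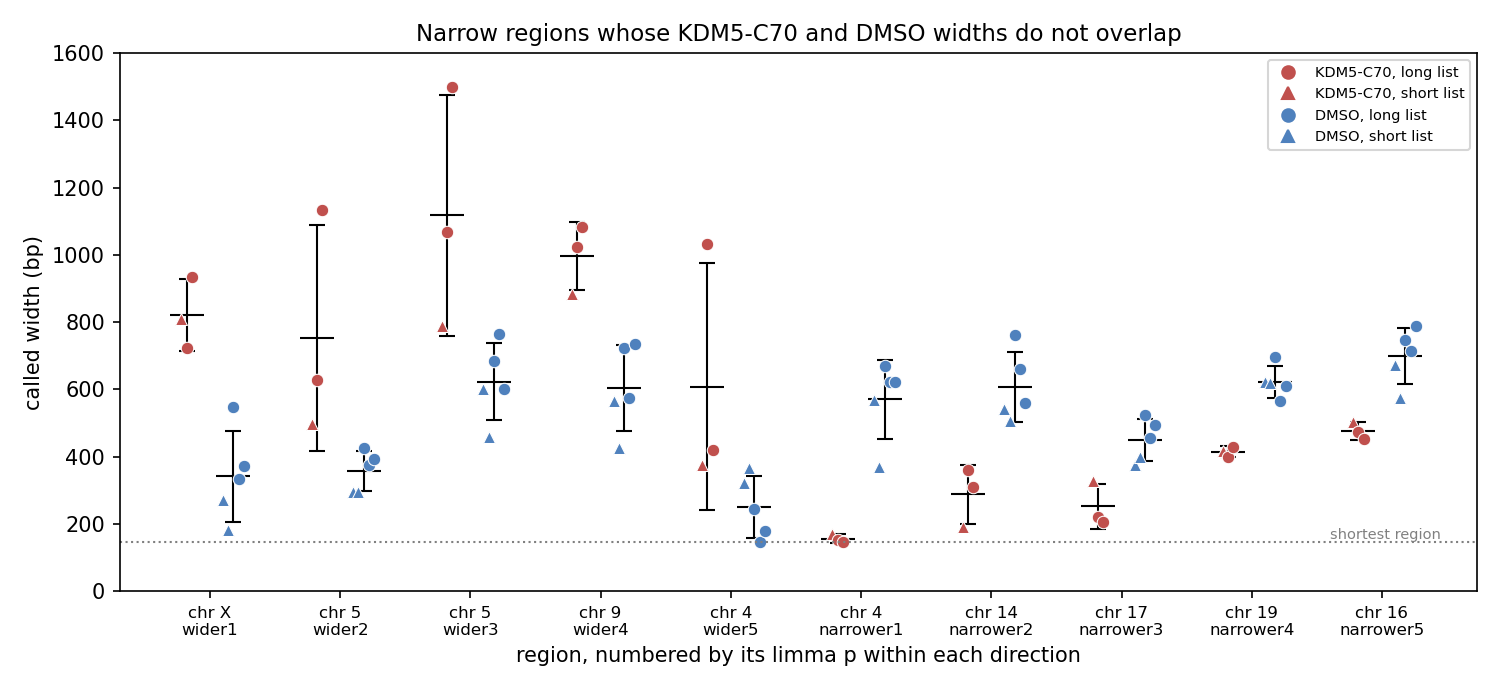
Called width (bp) in each library of the 10 narrow regions with the smallest p among those whose groups did not overlap, 5 wider and 5 narrower in KDM5-C70, with KDM5-C70 left of DMSO, triangles for short lists, circles for long lists, and mean and SD per group. The KDM5-C70 points of the chromosome X region stand at 722 to 935 bp above DMSO at 182 to 548 bp, and those of the narrower chromosome 4 region at 146 to 170 bp below DMSO at 369 to 670 bp.

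For the inner share, limma called 0 of the 13729 shared regions in either direction (0%), with a smallest adjusted p of 0.0699. At an unadjusted limma p under 0.05 there were 30 higher (0.219%) and 2541 lower (18.5%) among all shared regions, of which 5 and 266 were narrow regions. The median difference was -9.70 points over narrow regions and -10.8 points over all shared regions. Centring each library on its median inner share, which takes out the part shared by all regions, turned this balance round. At an unadjusted limma p under 0.05, 908 of the 13729 shared regions were higher and 523 lower. Among the 1474 narrow regions, which are 10.7% of the shared ones, 179 were higher and 82 lower. The inner share divides by called width, and DMSO widths chose these regions. The median difference was 3.04 points over narrow regions and 1.93 points over all shared regions. With the 2 sets as a term, 166 shared regions (1.21%) were called lower and 0 higher, and 29 of those were narrow regions. With the 2 sets as a term and centring together, 0 shared regions were called in either direction by limma (smallest adjusted p 0.109), 1229 were higher and 699 lower at an unadjusted p under 0.05, and the median difference was 3.04 points over narrow regions and 1.83 points over all. A lower inner share of single regions was thus called in none of the fits with centring. Without a variance trend 55 were called lower (0.401%), 10 of them narrow. Without KDM5-C70 1 there were 138 (1.01%), 47 of them narrow, and without KDM5-C70 2 there were 71 (0.517%), 28 of them narrow. In both, narrow regions were a larger part of the calls than of all shared regions (10.7%), and the choice on DMSO widths took part. The KDM5-C70 inner shares lay below all DMSO shares at 106 narrow regions (7.19%) and at 12.2% of all shared regions, and above them at 6 narrow regions (0.407%) and at 0.204% of all.

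The narrow regions with the smallest p for a lower inner share had inner segments over 18.1% to 51.4% of their called bases in KDM5-C70 libraries and over 79.3% to 100% in DMSO libraries. At chr15:42873405-42874394 the inner share was 35.6%, 35.7% and 39.6% in KDM5-C70 1 to 3, against 95.03%, 94.6%, 81.7%, 98.6% and 92.7% in DMSO 1 to 5. The difference was -55.5 points (SE 7.85, limma adjusted p = 0.0699), and the adjusted p was 0.0407 with the 2 sets as a term. Its widths were 533, 630 and 777 bp in KDM5-C70 1 to 3 and 302, 241, 783, 285 and 342 bp in DMSO 1 to 5, overlapping through DMSO 3. At chr4:54957742-54958679 the inner share was 26.0%, 33.8% and 48.9% in KDM5-C70 1 to 3, against 100%, 100%, 93.6%, 98.0% and 83.9% in DMSO 1 to 5. The chromosome X region named above had 18.1%, 47.6% and 29.9% in KDM5-C70 1 to 3, against 95.2%, 100%, 88.3%, 84.4% and 99.2% in DMSO 1 to 5, so it was both wider and less filled. The same held at chr5:176797362-176798860, with 44.9%, 33.2% and 26.8% in KDM5-C70 1 to 3, against 82.6%, 100%, 100%, 88.3% and 86.5% in DMSO 1 to 5. At chr20:4201953-4202739 the share was 44.1%, 51.4% and 42.6% in KDM5-C70 1 to 3, against 79.3% in DMSO 1 and 100% in DMSO 2 to 5 (limma adjusted p = 0.0419 with the 2 sets as a term).

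A higher inner share in KDM5-C70 was found at few narrow regions and passed no test. The clearest, at chr2:218933380-218934301, had 83.0%, 100% and 100% in KDM5-C70 1 to 3, against 54.1%, 75.8%, 66.1%, 63.1% and 61.8% in DMSO 1 to 5 (difference 30.2 points, SE 8.55, limma adjusted p = 0.129). At chr5:135169923-135171172 the share was 88.5%, 100% and 78.1% in KDM5-C70 1 to 3, against 65.4%, 0%, 61.7%, 59.0% and 42.7% in DMSO 1 to 5, where DMSO 2 had no inner segment. The other 3 regions named by the rule in this direction, at chr20:58508770-58509555, chr19:12885869-12886602 and chr19:19248532-19249282, had differences of 34.8, 18.0 and 4.75 points.

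Each chromosome held narrow regions, in shares of its shared regions that varied around the 10.7% of all. The share ran from 8.20% on chromosome X, where 37 of 451 shared regions were narrow (exact Clopper-Pearson 95% interval 5.84% to 11.1%), to 13.3% on chromosome 19, where 117 of 877 were (11.2% to 15.8%). The interval of chromosome 19, the highest of the 23, lay above the 10.7% of all shared regions, and that of chromosome X included it. These intervals count regions as independent, which neighbouring regions are not. Chromosome 1 held the most narrow regions, 156, or 10.6% of them, against 10.4% of the other shared regions. To make the 2 distributions over chromosomes equal, 5.26% of the narrow regions would have to move. The members are called in every library, so their distribution belongs to the regions and does not differ between KDM5-C70 and DMSO.

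What can differ between groups by chromosome is how the regions were called. The inner share of label-blind narrow regions was lower in KDM5-C70 on each of the 23 chromosomes, with a difference of -5.69 points on chromosome 17 and -21.8 points on chromosome 14 at the ends of the range. On 10 chromosomes the exact permutation p was 0.0357, the smallest possible, and the lowest adjusted p over the 23 was 0.0821. The chromosomes share the same 8 libraries and are not separate replicates. The width relative to other shared regions of the same chromosome differed by -0.11 to 0.10 on the log2 scale, with a lowest adjusted p of 0.548 by the same exact permutation test. On chromosome 14, chosen after its value was seen, the 36 label-blind narrow regions had an inner share of 55.3%, 72.0% and 72.7% in KDM5-C70 1 to 3, against 85.7%, 80.4%, 90.6%, 94.5% and 91.2% in DMSO 1 to 5. The other shared regions of chromosome 14 also differed, by -18.2 points, so the low value there was not confined to narrow regions.

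**Figure D5:**
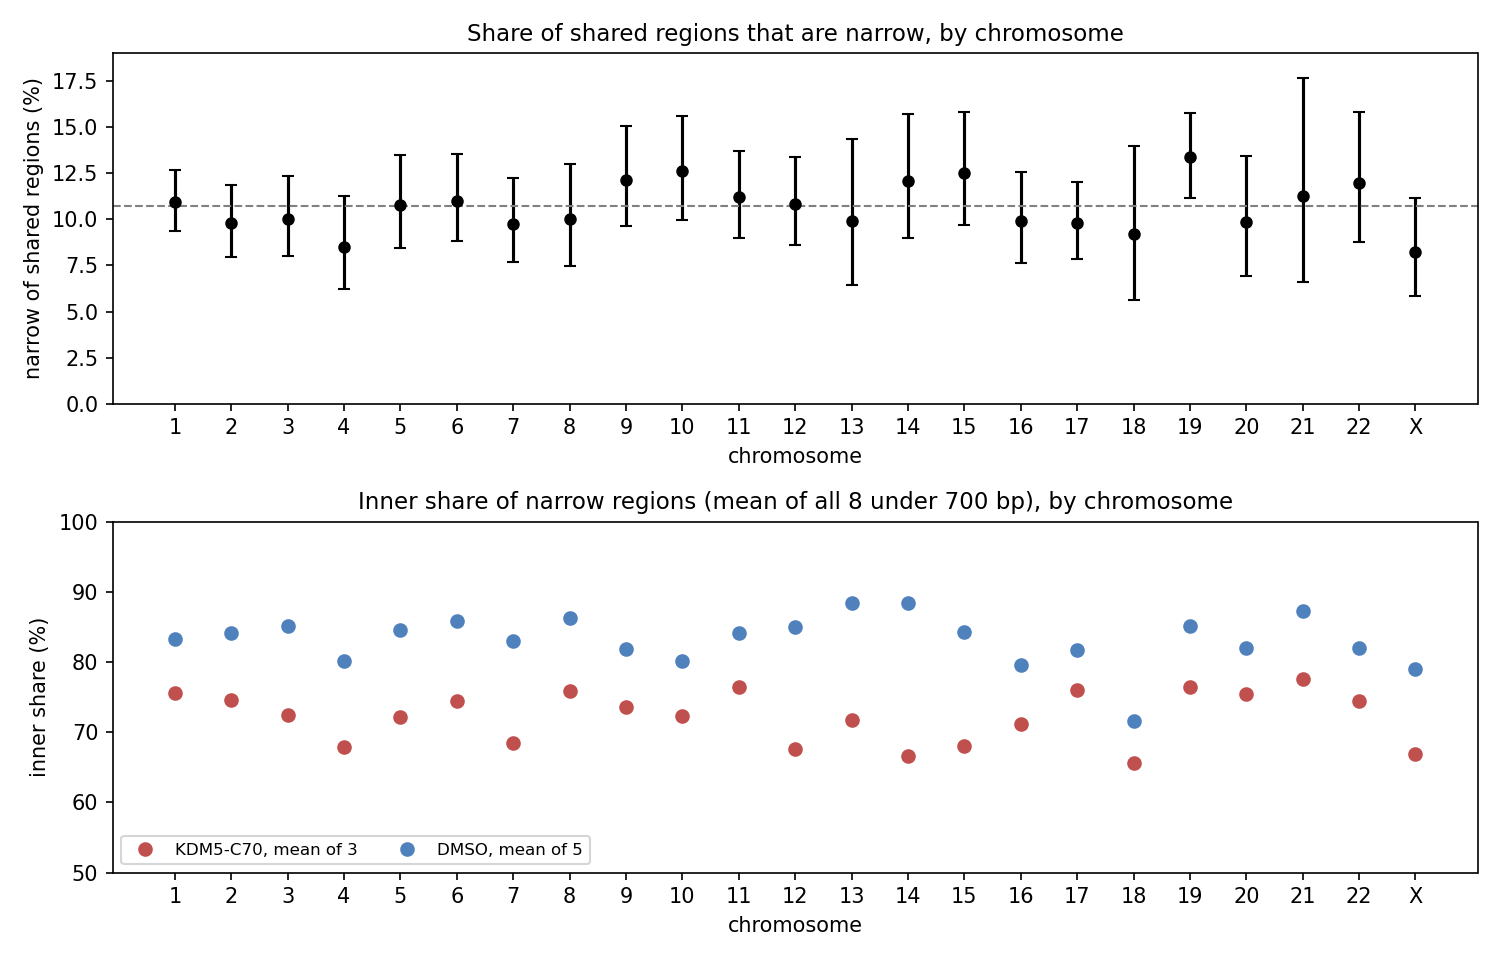
Top, narrow regions as a percentage of the shared regions of each chromosome, with exact 95% intervals and a dashed line at the 10.7% of all shared regions; bottom, inner share (%, axis from 50) of label-blind narrow regions as the mean of the 3 KDM5-C70 and of the 5 DMSO libraries. Shares run from 8.20% on X to 13.3% on chromosome 19, and the KDM5-C70 mean lies below the DMSO mean on all 23 chromosomes, by the most on chromosome 14.

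The same measures were read by distance to the next shared region. Over the 203 label-blind narrow regions within 5 kb of another shared region the inner share was 65.0%, 72.3% and 70.4% in KDM5-C70 1 to 3, against 78.8%, 70.4%, 88.1%, 85.3% and 85.3% in DMSO 1 to 5. Over the 782 that lay 5 to 100 kb away it was 70.1%, 76.4% and 77.9% in KDM5-C70 1 to 3, against 81.1%, 75.7%, 90.7%, 85.7% and 87.5% in DMSO 1 to 5. Over the 266 that lay more than 100 kb away it was 63.8%, 72.6% and 73.6% in KDM5-C70 1 to 3, against 81.1%, 74.3%, 88.1%, 84.3% and 84.9% in DMSO 1 to 5. The median widths of the isolated regions were 418, 642.5 and 700 bp in KDM5-C70 1 to 3, against 502.5, 333, 717.5, 632.5 and 656 bp in DMSO 1 to 5, and the groups overlapped. In all 3 classes KDM5-C70 1 had a lower inner share than DMSO 1 and 2, and KDM5-C70 2 and 3 had lower ones than DMSO 3, 4 and 5. Whether the classes differ from each other was not tested.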

How the data were processed

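H3K4me3 ChIP-seq of MM1S cells was used as 8 deposited lists of called regions, 1 per library. The submitters' processing notes name GRCh37 and the tools HOMER 4.8, MACS2 2.1.0, Bowtie 1.1.2 and Trim Galore 0.40. Tool settings were not given in the sources used here, and no control library was analysed. In 15 columns the authors deposited positions and inner blocks in bp, plus a score for display, a ratio of enrichment (fold), and p-value and q-value columns as -log10. The deposited fold enrichment was used only to rank regions within a list, and the deposited -log10 q-value only to make stricter lists. The region names inside the lists of DMSO 3, 4 and 5 carry the numbers 4, 5 and 6; samples were taken from the labels.

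Lists were joined at an overlap of 1 bp, blocks of 1 bp were left out, and positions count from 1. Library values were compared by the 2-sided exact permutation test over 56 splits, with the smaller tail doubled. Within the 2 sets (30 arrangements) and in libraries that had not chosen the regions (10 splits), absolute differences were counted instead, without doubling. The smallest exact permutation p possible was 0.0333 within the sets and 0.1 over the 10 splits. Regions were tested with limma 3.58.1 in R 4.3.3 (group, variance trend, no centring) on log2 called width and on inner share, with Benjamini-Hochberg adjustment at 0.05 over the 13729 shared regions. Python 3.11.15 (scipy 1.17.1, pandas 2.3.3, numpy 2.4.6, matplotlib 3.10.9) did the rest. Tested on simulated data for 13729 regions, the width step found 23% of 100 regions with a log2 change of 1, and 65% of 100 with a log2 change of 2, with 8 false calls. The inner share step recovered 1% of 100 regions changed by 20 points and 17% of 100 changed by 40 points, with 2 false calls.

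Named regions were the 5 per direction with the smallest limma p among members whose groups did not overlap, for width and for inner share, the steadiest, the most isolated and the narrowest members, and those nearest the limit; only some of the last 4 kinds are printed. The members and lists were chosen with earlier results of these data known. Alternatives were other width limits, other choices of the regions, inner segments only, joining within 1000 bp, a term for the 2 sets, centring, no variance trend, a replicate block, and leaving out each library. The gene table used here is of another build (GRCh38.p14), so no gene or sequence was assigned.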

Additional observations from a re-analysis of the deposited data

Results flagged for a closer look

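In 5 of the 47 groups of 5 DMSO values looked at, 1 library stood apart from the other 4 by more than 0.71 of the whole range. A chance rate of about 5% would hold for independent, normally distributed values. Percentages close to 100% are not such values, and many of the regions looked at were picked because their groups did not overlap. The count of flagged groups is therefore not set against that rate. DMSO 2, a short list, did so for 3 measures of the label-blind narrow regions. An inner segment was called at 88.2% of them in DMSO 2 and at 96.9% to 99.8% in the other DMSO libraries. The shortest length was called at 3.60% of them in DMSO 2 and at 0% to 0.40% in the others. Regions with 2 or more inner segments made up 2.41% in DMSO 2 and 7.56% to 9.65% in the others. These 3 measures come from the same calls and are not independent.

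At chr19:19248532-19249282 the inner share was 81.8% in DMSO 2 and 96.6% to 98.9% in the other DMSO libraries. At chr20:4201953-4202739 the inner share was 79.3% in DMSO 1 and 100% in the other DMSO libraries, where any value below 100% would have been flagged.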

How the results depend on the processing

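The width of narrow regions depended on the choices made, and the cause was not tested. KDM5-C70 minus DMSO was -34.7 bp when only inner segments were counted and -9.33 bp when KDM5-C70 widths chose the regions. Leaving out 1 library gave -15.9 to 117 bp, and it was below 0 without DMSO 2 (-13.5 bp), KDM5-C70 2 (-0.20 bp) or KDM5-C70 3 (-15.9 bp). With regions chosen on DMSO, the inner share minus that of other shared regions was -0.584 points, and the log2 width minus theirs was 0.0050. Leaving out 1 library gave -0.601 to 3.12 points and -0.10 to -0.03. The right end shift was -0.204 bp with a limit of 600 bp. Leaving out 1 library gave -10.5 to 39.0 bp for the left end, -13.2 to 36.9 bp for the right end, -7.34 to 1.24 points for regions with an inner segment and -0.410 to 1.92 points for regions at the shortest length. None of these passed the threshold in any exact permutation fit.

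The difference in inner share stayed below 0 throughout, at -15.0 to -7.70 points with 1 library left out. Only permuting labels within the 2 sets, which were recognised from these data, gave a p under 0.05 before adjustment. There the difference was -10.8 points (exact permutation p = 0.0333, adjusted p = 0.178 over 16 measures). That p counted absolute differences, while the test over 56 splits doubled the smaller tail, so the 2 p-values are not directly comparable. Regions filled to at least 95% gave -11.1 points and flanks 4.32 points with the KDM5-C70 choice. Flanks overlapped between groups under that choice, at 15.8% in KDM5-C70 3 against 17.1% in DMSO 1 and 17.0% in DMSO 2. With 1 library left out, filled regions gave -19.1 to -15.8 points and flanks 6.87 to 8.78 points. The splits of 7 libraries cannot go below an exact permutation p of 0.0571 or 0.0952. In libraries that had not chosen the regions, leaving out 1 gave 79.8 to 141 bp for width and -13.9 to -11.7 points for inner share.

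For inner share, limma called 55 regions without a variance trend (10 of them narrow), 166 with the 2 sets as a term (29 narrow), 138 without KDM5-C70 1 (47 narrow) and 71 without KDM5-C70 2 (28 narrow), against 0 as reported. Leaving out 1 library gave 0 to 138 (0 to 47 narrow), all lower. Narrow regions were 10.7% of the shared regions tested. With centring it called 0, alone or with the 2 sets as a term, and the median difference over narrow regions turned to 3.04 points in both. For width it called 27 (3 narrow) with the 2 sets as a term and centring, and 0 with any 1 library left out. Pairing by replicate number could not be told apart from the 2 sets. Deviations of same-numbered libraries had a Pearson correlation of 0.367, -0.306 and 0.318. Pairs of a KDM5-C70 and a DMSO library from the same set gave 0.280 to 0.415, and pairs from different sets gave -0.426 to -0.268. With the number as a replicate block, without DMSO 4 and 5, limma called 10 regions by width (0 narrow) and 0 by inner share. Lists cut to equal length (10147 regions shared) and stricter lists (10 shared) held 0 label-blind narrow regions and gave no value. The unknown depth limits every absence: a region without an inner segment is one where none was called.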
